A study of Schizosaccharomyces pombe with 87 samples.

Results

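The genes named mug (meiotically upregulated gene) or meu (meiotic expression upregulated) of fission yeast, Schizosaccharomyces pombe, were described in the genome annotation deposited with a ChIP-seq series on heterochromatin. A gene was taken where its record had an mRNA and its name was mug or meu followed by a number, and genes within 100 kb of an end of chromosome I or II were to be left out. The rule found 111 of 5113 mRNA genes, 92 named mug and 19 named meu, and 0 further genes of either name lay within the ends, where 124 mRNA genes lie. The 4878 other mRNA genes outside the same ends were the comparison.

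The series measured H3K9me2 and H3K9me3, methylation marks of heterochromatin, in 87 libraries, 48 immunoprecipitated and 39 input, of cells grown in YEA medium at 32 °C to log phase. An ectopic set covered 7 genotypes: WT, swi6-delta, swi6-delta mst2-delta, swi6-delta set1-delta, swi6-delta mst2-delta set1-delta, mst2-delta set1-delta and clr4-delta. An endogenous set covered the first 5 of these. Swi6, an HP1 protein, binds the H3K9 methylation that Clr4 lays down, and Mst2 and Set1 acetylate and methylate histones at active genes. The files analysed here hold positions of genes and no signal of any library, so the comparisons below are between groups of genes, not between genotypes. Every annotated gene was counted, and no test was made.

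Fission yeast enters meiosis when nitrogen is scarce, and large sets of genes are then switched on in waves. The transcription factor Ste11 opens the programme and binds DNA letters known as the TR box, and the forkhead factor Mei4 drives the middle wave through letters known as FLEX. In growing cells, the RNA-binding protein Mmi1 recognises TNAAAC, where N is not A, in meiotic transcripts that escape this control, and sends them to degradation. These repeats are called the determinant of selective removal, or DSR, and some of the genes that carry them lie in islands of H3K9 methylation. Most mug and meu names come from expression screens and say when a gene was active, not what it does.

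The promoter letters found more often at mug and meu genes than at the others are shown first, for genes whose role or predicted product is given beside each. Each line gives 30 bases of RefSeq assembly ASM294v3 on the gene's own strand, and capitals mark each GTAAACA or its reverse complement TGTTTAC. The line of meu14, whose protein lines the leading edge of the forming spore membrane, is chrII:4066226-4066255 on the plus strand. Those of meu7, an alpha-amylase, and mug73, a predicted membrane transporter, are chrII:4274722-4274751 and chrIII:624521-624550, both on the minus strand. Those of mug28, an RNA-binding protein, and mug27, a meiosis-specific kinase, are chrI:1650950-1650979 on the plus strand and chrIII:1679591-1679620 on the minus strand. That of mug20, a protein of the linear elements along which meiotic chromosomes recombine, is chrII:2393135-2393164 on the minus strand.
meu14: aattgtgcttcTGTTTACaggcaaatctta
meu7: agcagtcctttTGTTTACgcctaaaaatac
mug73: agcctctatccTGTTTACgcatcatgaatg
mug28: cTGTTTACtttTGTTTACattgagaattcc
mug27: aacccggtgttTGTTTACatttgctgggag
mug20: gctagcttgatGTAAACAaaagacgcgtag

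The FLEX letters GTAAACA or GTAAATA, on either strand, stood in the promoter windows of 66 of 111 mug and meu genes, or 59.5%. A window ran from 250 bases before to 50 bases after the annotated start, which is the start codon where no 5′ UTR is recorded. Of the other mRNA genes, 1423 of 4876 matched windows held these letters, or 29.2%, and of all windows 29.9%. The share was 58.7% for mug and 63.2% for meu genes, so both families stood above the rest. The excess lay mainly in GTAAACA, present in 48.6% of the mug and meu windows and 16.1% of the others, while GTAAATA was present in 25.2% and 16.2%.

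Several windows held more than 1 match. At least 2 matches stood in 27.9% of the mug and meu windows and 6.01% of the others. The windows of meu25 and mug162 held 4 each, the highest number among these genes and among the others too. The windows of meu14, meu7, mug20, mug73, mug94, mug109, mug130, mug174 and mug70 held 3 each. In mug28 a pair of matches started 61 and 51 bases before the start, 10 bases apart.

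Matches were found along the whole window, and the share of mug and meu genes with a match was highest next to the start. Of 110 matches in mug and meu windows 101 began before the start, and the median began 90.5 bases before it, against 110 bases for the 1753 matches in other windows. In the 50 bases next to the start, 22.5% of the mug and meu genes and 6.03% of the others had a match, and in the farthest bin, from 201 to 250 bases, 8.11% and 5.60%. The start was the start codon for 46 of 111 mug and meu genes and 469 of 4876 others. These positions thus mix both kinds of start in unlike shares, and nearness to a transcript start was not tested. The share of A and T in the windows was 68% in the median mug or meu gene and 67% in the median other gene, and its part in the difference was not tested. Where a 5′ UTR was recorded, 55.4% of mug and meu windows and 29.3% of the others held the letters, and where none was, 65.2% and 27.9%. A match describes the letters only and does not show that Mei4 binds there.

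**Figure D1:**
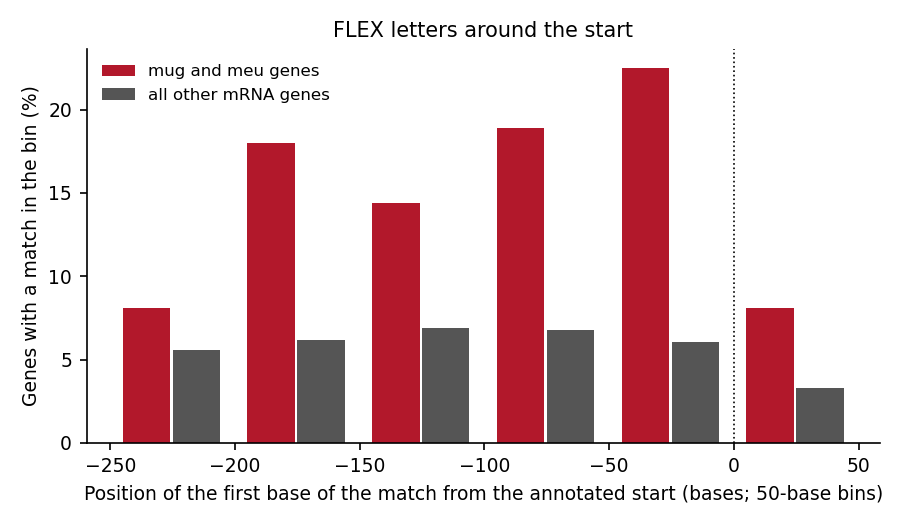
Share of genes with FLEX letters (GTAAACA or GTAAATA, either strand) in each 50-base bin from 250 bases before to 50 bases after the annotated start, for the 111 mug and meu genes (red) and 4876 other mRNA genes (grey). The red bars stand above the grey ones in each bin and are highest, at 22.5%, in the bin next to the start.

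The TR box letters TTCTTTGTT, searched on both strands, were rare in both groups. They stood in 2 of 111 windows, those of mug99 and mug4, or 1.80%, against 97 of 4876 others, or 1.99%. This search takes 1 exact spelling of the box, and no match says only that these letters were not in the window.

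DSR letters on the transcript strand were next counted along the spliced transcript. A few mug and meu genes carried them densely. The lines below show the 30 bases with the most matches in 2 of these transcripts, with each TNAAAC in capitals, at chrIII:2369317-2369346 on the minus strand for mug9 and chrI:978607-978636 on the plus strand for meu13.
mug9: TTAAACaatTGAAACttactgaatcaactc
meu13: TGAAACggagggaccaattgacTTAAACta

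The transcript of mug9, a fungal protein without a described function in the annotation, held 9 matches in 689 bases, or 13.1 per kb. That of mug20 held 6 matches, or 6.97 per kb. That of meu13, a homologous-pairing protein that works with Mcp7 in meiotic recombination, held 4 matches, or 6.14 per kb. The longer mug45 transcript held 13, or 5.17 per kb. Density and number thus ranked these genes differently.

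At 4 or more matches per kb stood 13 of 111 mug and meu transcripts, or 11.7%, against 82 of 4876 others, or 1.68%. These were mug9, mug20, meu13, meu26, mug42, mug74, mug45, meu32, mug15, mug10, mug128, meu43 and mug37. The short transcripts of mug42, mug15 and mug128 reached this density with 2 matches each. The value of 4 was chosen with the data in view. With 3 or more per kb the shares were 16.2% and 5.11%, and with 5 or more 7.21% and 0.738%. The median transcript did not stand apart, with 1.26 matches per kb among mug and meu genes and 1.18 among the others. By number and not density, the groups were also close. At least 5 matches per transcript were found in 18.9% and 16.6%, and at least 10 in 1.80% and 1.44%. The densest among the other genes was moa1, a meiotic kinetochore protein with the older name mug159, with 13.5 per kb. It was followed by new9 with 11.5, from 2 matches only, by rec27, a linear element protein with the older name mug41, with 11.0, and by SPAP27G11.11c with 9.01, again from 2 matches. Not all dense transcripts belonged to genes known from meiosis: that of rpl3202, a ribosomal protein gene, had 6.16 per kb, close to the 6.42 of rec8, the meiotic cohesin, and both were picked after their values were seen.

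**Figure D2:**
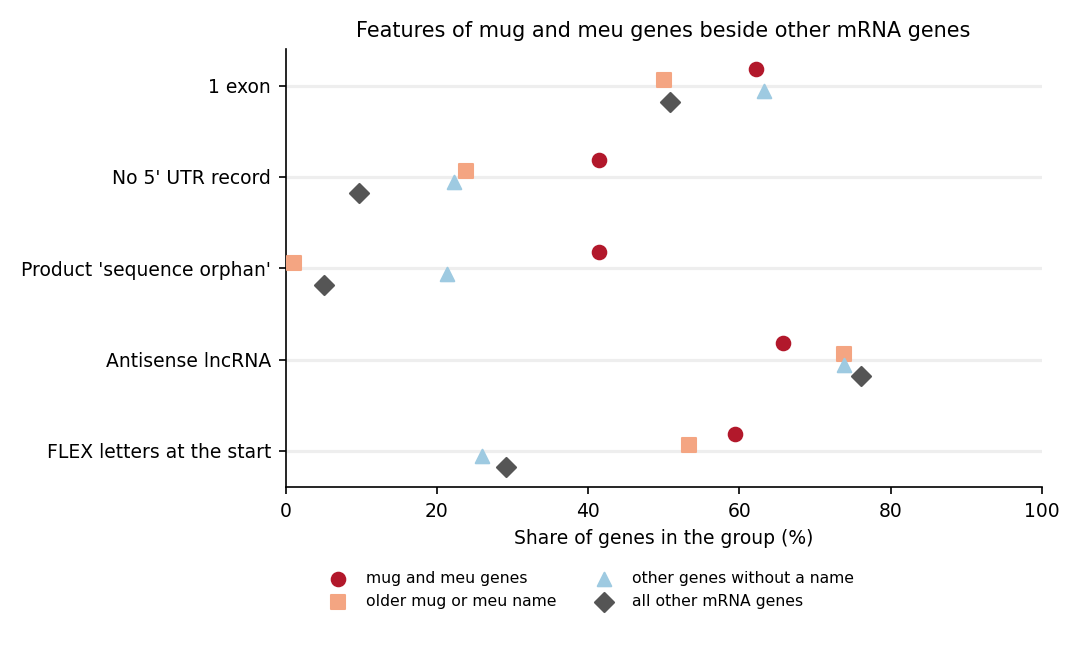
Share of genes (x axis, percent) with 1 exon, without a 5′ UTR record, with the product "sequence orphan" in the tetarr6 annotation, with an antisense lncRNA and with FLEX letters at the start, for 111 mug and meu genes (red circles), 88 genes with an older mug or meu name (orange squares), 821 other genes without a name (blue triangles) and all 4878 other mRNA genes (grey diamonds). In FLEX letters both groups with a mug or meu name stand at 59.5% and 53.4%, while in missing 5′ UTR records and orphan products the red circles, both at 41.4%, stand to the right of the other groups.

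The mug and meu genes had fewer exons than the other mRNA genes, but not fewer than other genes that also lack a function-based name. A single exon was found in 69 of 111 mug and meu genes, or 62.2%, against 50.9% of all others, 48.4% of other genes with a name and 63.3% of other genes without one. At least 3 exons were found in 18.9% and 27.1% of mug and meu genes and of all others. The mean was 1.78 exons against 2.04. Among meu genes alone 52.6% had a single exon.

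The most exons, 7 each, were found in mug62, a predicted AMP-binding enzyme, and mug137, a BAR adaptor, a kind of protein that binds curved membranes. The gene mug16, of the UNC-50 family, had 6, and 4 genes had 5 each: mug161, a predicted splicing factor of the CwfJ family, meu13, mug64, a predicted BAR domain protein, and the sequence orphan mug126, which had 3 in the second deposited annotation. The 87 introns of mug and meu genes had a median length of 56 bp, the same as the introns of the other genes, and ran from 37 bp to 272 bp, the latter in mug65, a predicted spore wall assembly protein.

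Introns opened somewhat less often with the commonest splice site letters. The 6 bases GTAAGT opened 23.0% of the 87 introns and 27.7% of introns in other genes, and GTATGT opened 11.5% and 19.7%. The rarer GTACGT went the other way, with 6.90% and 5.12%. The 4 introns of meu13 show the variety, none of them opening with any of these. Their first 12 bases follow, with the first 6 in capitals, from introns at chrI:977758-977803, chrI:977858-977904, chrI:978007-978048 and chrI:978190-978332, all on the plus strand.
intron 1: GTATAAtattga
intron 2: GTAAGAacatac
intron 3: GTACTGaaaaat
intron 4: GTCAGTaaataa
The gene mug93, with a TPR repeat product, is described as meiotically spliced in the second deposited annotation and had 3 exons in both.

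Untranslated regions were recorded less often for mug and meu genes than for the others. A 5′ UTR record was missing in 46 of 111, or 41.4%, against 9.66% of all others and 22.3% of others without a name. A 3′ UTR record was missing in 19.8% and 6.70%. Both UTRs were recorded for 50.5% of the mug and meu genes and 87.0% of the others. Among genes with a coding sequence from 1000 bp to under 2000 bp, a 5′ UTR record was missing in 38.9% of mug and meu genes and 6.95% of the others. A missing record is a state of the annotation and does not show that the transcript lacks a leader.

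Among genes with a record, the 5′ UTR was longer in the median mug or meu gene, 126 bp against 97 bp, and the 3′ UTR nearly equal, 276 bp against 262 bp. Against other genes without a name, whose medians were 133 bp and 307 bp, both differences turned round. The longest 5′ UTR, 1788 bp, belonged to meu22, an amino-acid permease, followed by mug132 with 994 bp, mug121 with 921 bp, mug100 with 821 bp and mug165 with 771 bp. The longest 3′ UTRs belonged to small sequence orphans: that of mug115 was 2724 bp behind a protein of 131 residues, and that of mug163 was 2667 bp behind 186 residues. In 14.4% of mug and meu genes, and 11.7% of the others, the 3′ UTR was longer than the coding sequence.

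The second deposited annotation, called tetarr6 here after its name, recorded more leaders. It lacked a 5′ UTR for 31 of 110 mug and meu genes, or 28.2%, and for 7.15% of the others, and 17.3% and 5.32% had such a record there and none in the all-chromosomes annotation. The leader of mug86, a predicted acetate transporter, was 138 bp in the all-chromosomes annotation and 1877 bp in tetarr6. That of meu10, a cell surface protein of spore wall assembly, was 365 bp and 1933 bp. The genes mug150 and mug24, the latter an RNA-binding protein, had no 5′ UTR record in the first and 1620 bp and 1568 bp in the second. Conversely, mug121 had 921 bp in the first and 78 bp in the second. The 3′ UTR lengths of all 110 were the same in both files. The gene meu1 had neither mRNA nor coding sequence in tetarr6 and was left out there.

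**Figure D3:**
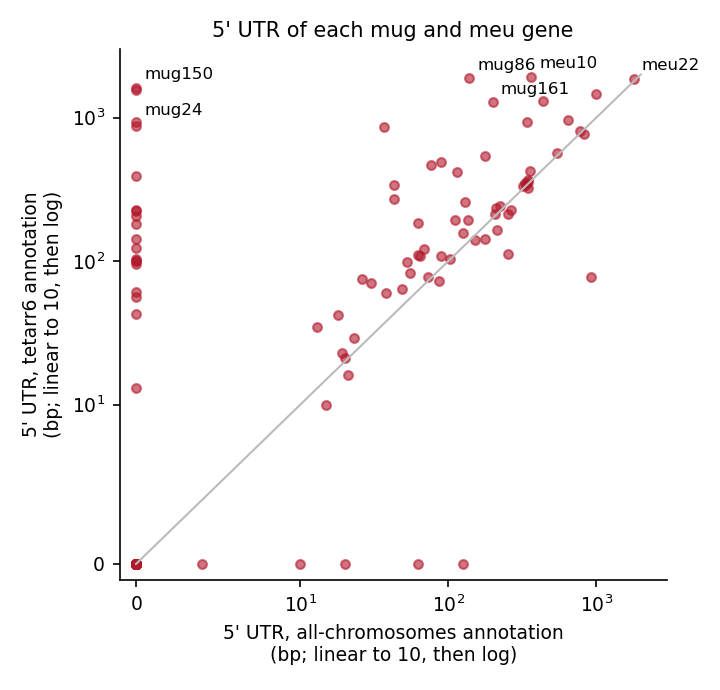
Length of the 5′ UTR of 110 mug and meu genes in the all-chromosomes annotation (x axis, bp) and the tetarr6 annotation (y axis, bp), on axes linear to 10 bp and logarithmic above; 0 means no record, and the grey line marks equal lengths. Points on the left edge are genes with a record only in tetarr6, such as mug150 at 1620 bp, and mug86 and meu10 stand far above the line.

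The mug and meu genes were also short. The median gene record was 1522 bp against 1797 bp, the median coding sequence 903 bp against 1149 bp and the median protein 300 against 382 residues. Other genes without a name had a median protein of 298 residues. The longest protein was that of mug62 with 1487 residues, and the shortest were those of mug150 with 104, mug177 with 105 and mug153 with 109. Gene records ran from 348 bp in mug42 to 4796 bp in mug62.

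Many of these genes lacked a described product. The product "sequence orphan" in tetarr6, used for proteins without a recognised relative, was given to 46 of 111, or 41.4%, against 5.07% of all others and 21.4% of others without a name, so that mug and meu genes made up 46 of the 293 genes so described, or 15.7%. In RefSeq the product was no more than a gene name or "uncharacterized protein" in 71 of 111, or 64.0%, against 11.5% of all others and 42.6% of others without a name. In 70 of the 111 it held the name only, and that name is what the rule selected. Genes since given another name count among the others, so this contrast is not independent of the rule. The median orphan among mug and meu genes had 187 residues and the median non-orphan 357. Of 7 genes with a DUF1773 product, a family of predicted cell surface glycoproteins, 3 were mug2, mug135 and meu23. The spore wall was named in the product of 3: mug65, mug56 and meu10.

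Overlap with antisense long non-coding RNA genes depended on how it was counted. In fission yeast many meiotic genes are known to have antisense transcripts in growing cells. At least 1 bp was covered by an lncRNA gene on the other strand in 73 of 111 mug and meu genes, or 65.8%, against 76.1% of the others. Where such an lncRNA was present it covered more of the gene, 78.4% in the median mug or meu gene against 58.3%. Coverage of at least 50% of the gene was found in 45.0% and 44.0%, and coverage of the whole gene in 13.5% and 6.93%. At least 3 antisense lncRNA genes stood over 2.70% and 9.33%.

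The all-chromosomes annotation lists 7157 lncRNA genes, many of which are not in tetarr6. Of the 98 lncRNA genes antisense to mug or meu genes, 34, or 34.7%, were in both files, against 15.2% of the 5267 antisense to others. With these alone, 27.0% of mug and meu genes and 18.8% of the others had an antisense lncRNA, so the order of the groups was the opposite of that with all lncRNA genes. Within the tetarr6 annotation the shares were 27.3% and 21.2%. By gene length, with records under 1000 bp 57.7% and 58.0% had an antisense lncRNA, and with records from 1000 bp to under 2000 bp 60% and 75.5%.

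**Figure D4:**
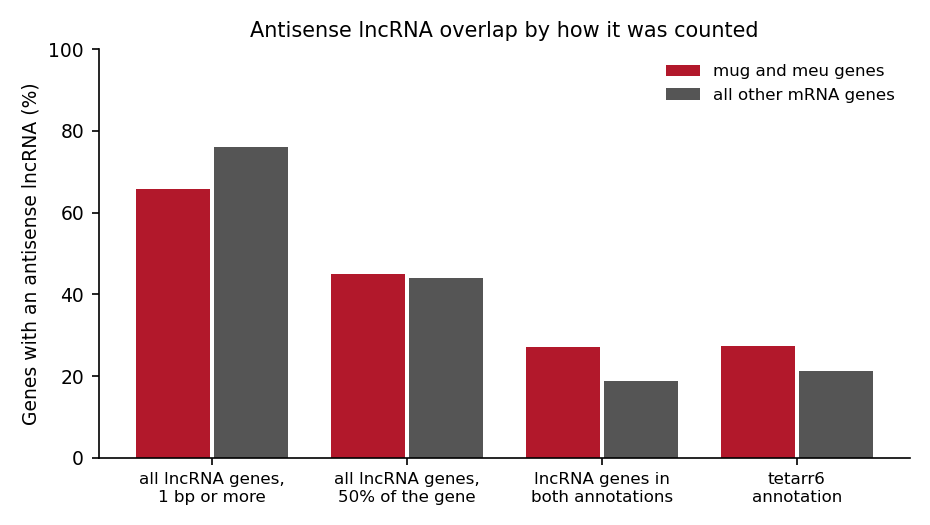
Share of mug and meu genes (red) and other mRNA genes (grey) with an antisense lncRNA gene, in percent, by 4 ways of counting. The grey bar is higher at 1 bp or more of all lncRNA genes (76.1% against 65.8%), the bars are level at 50% of the gene, and the red bar is higher with lncRNA genes in both annotations (27.0% against 18.8%) and in the tetarr6 annotation.

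Single genes show the range. The lncRNA SPNCRNA.1663 covered meu14 entirely, and mug93, mug95, meu31 and mug42 were covered entirely as well. The gene mug89, a subunit of a lipid-moving ATPase complex, had the most, 4 lncRNA genes over 46.1% of its length, and mug72, a predicted oxidoreductase, had 3 over 93.6%. The lncRNA over mug121, SPNCRNA.05, covered 38.5% of it. Neither meu6, meu27, mug28 nor mug137 had an antisense lncRNA.

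Those 4 genes instead lay wholly within an mRNA gene of the opposite strand. This was found for 14 of 111 mug and meu genes, or 12.6%, against 3.81% of all other mRNA genes, 3.77% of others with a name and 4.02% of others without one. For the coding span alone the shares were 16.2% and 5.92%. Overlap of any extent was no more frequent: at least 1 bp was shared with an mRNA gene of the opposite strand in 37.8% and 38.3%. These shares include the genes covered entirely. At least 50% of the gene was covered in 21.6% and 11.3%. Among genes from 1000 bp to under 2000 bp, 12% of mug and meu genes and 3.53% of the others were covered entirely. In tetarr6 12.7% and 4.27% were covered entirely.

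The cover came mostly from the long 3′ UTR of the partner. Each of the 14 had 1 partner and none had an antisense lncRNA. In 8 the whole gene lay past the partner's stop codon, in meu27, mug117, mug131, mug62 and mug97 between 83.0% and 97.7% of it did, and in mug112 none of it did. These counts were not made for the 186 other genes covered entirely. Whether they are particular to mug and meu genes was not tested. The gene meu6, with a pleckstrin homology product, stands on chromosome II from 454161 to 456553 on the plus strand, within the record of clr4, which runs from 453996 to 458410 on the minus strand with a 3′ UTR of 2579 bp. This clr4 is the gene deleted in the clr4-delta strain of the ectopic set, and how far that deletion reaches is not stated in the labels. The gene mug137 lay within erm2, with a 3′ UTR of 1995 bp, mug28 within mrp17, with 2365 bp, and mug113 within gsa1, with 2090 bp. The gene mug62 lay within alp41, a tubulin-folding GTPase whose 3′ UTR record is 4918 bp. The gene meu27 lay within chk1, the checkpoint kinase, and mug97 lay within another of these genes, mug57. With lncRNA and mRNA genes together, 89.2% of mug and meu genes and 90.4% of the others had some annotated transcript on the opposite strand. An opposite-strand mRNA gene without any antisense lncRNA was found in 23.4% and 14.3%.

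**Figure D5:**
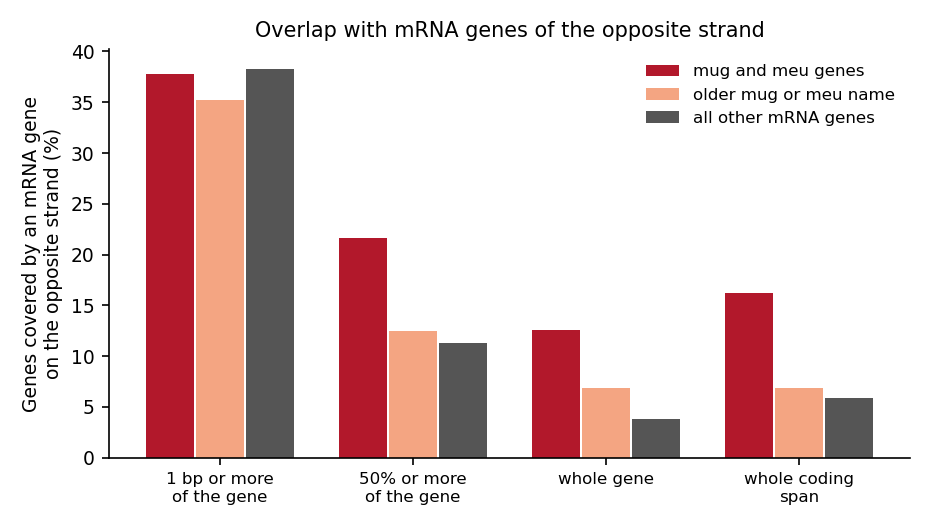
Share of genes (percent) covered by an mRNA gene of the opposite strand, for 111 mug and meu genes (red), 88 genes with an older mug or meu name (orange) and all other mRNA genes (grey), at 4 degrees of cover. The groups are level at 1 bp or more, and the red bars are higher where the whole gene (12.6%) or the whole coding span (16.2%) is covered.

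The orientation of neighbouring mRNA genes differed little. Of the sides of mug and meu genes 47.3% were tandem, 27.9% divergent and 24.8% convergent, against 45.0%, 27.5% and 27.5% for the others. Convergent neighbours overlapped on 69.1% of such sides and on 64.8% for the others, with median distances of -121 bp and -69 bp, where a value below 0 is an overlap. The median distance to the upstream neighbour was 520 bp against 473 bp. On the plus strand lay 47.7% and 49.7%.

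The genes were spread over all 3 chromosomes. Chromosome I held 55, or 2.42% of its mRNA genes outside the ends, chromosome II held 30, or 1.66%, and chromosome III held 26, or 2.84%. The right arm of chromosome II had the lowest share, 17 of 1195 genes or 1.42%, and the right arm of chromosome III the highest, 15 of 506 or 2.96%. The median gap held 30.5 mRNA genes, the longest 269, and 19 of 108 gaps held at most 5. In 4 gaps the genes were next to each other: mug105 and meu29, mug116 and mug86, and the overlapping pairs mug177 with mug58 and mug57 with mug97. The pair mug116 and mug86 was followed on the same strand by mes1, which acts in the second meiotic division, 228 bp past mug86. Of the 50 windows of 250 kb that held any mRNA gene outside the ends, some of them cut short by an end, 7 held none of the mug and meu genes, the median held 2 and the fullest held 7.

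Distances to the heterochromatic landmarks varied. No gene lay near the 100 kb limit: the nearest to an end of chromosome I or II was mug14, an adducin, 128609 bp from the left end of chromosome II. On chromosome III, where the rule set no limit, mug170 lay 56687 bp from the right end and meu23 lay 98574 bp from the left end. The nearest to a centromere was meu27, 6708 bp from that of chromosome III, followed by meu1, 13129 bp from that of chromosome I, and meu25, 36390 bp from that of chromosome II.

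Near the loci that were edited in the annotation, mug135 lay 1891 bp from the shortened ura4 site of chromosome III, with only tam14 between them, and meu23 lay 15775 bp from it. Both carry the DUF1773 product named above. The gene mug150 lay 15326 bp from ade6, and meu17, a glucan glucosidase, was the nearest to the mating-type interval, at 74675 bp. No library value at these genes was analysed here.

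Many genes first called mug or meu now carry another name. Of the mug numbers up to 191, 92 are current names, 84 are older names of other genes in RefSeq and 15 matched none. Of the meu numbers up to 43, 19 are current names of mRNA genes, 5 of non-coding genes (meu3, meu11, meu16, meu19 and meu20), 10 older names and 9 matched none. Outside the ends, 88 mRNA genes had such an older name. Among them are rec25, rec24, bqt1 and spo5, all with functions in meiosis.

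The renamed genes shared the FLEX and DSR letters and some, but not all, of the other features. FLEX letters stood in 53.4% of their windows, and 13.6% had 4 or more DSR matches per kb. By number they stood above the mug and meu genes. At least 5 DSR matches were found in 34.1% against 18.9%, and at least 10 in 7.95% against 1.80%. Their median was 1.63 per kb against 1.26. A single exon was found in 50%, and 1.14% were sequence orphans. A 5′ UTR record was missing in 23.9%, between the 41.4% of mug and meu genes and the 9.66% of all others. A 3′ UTR record was missing in 17.0%, against 19.8% and 6.70%. Where antisense lncRNA was present, it covered 78.4% of the median renamed gene, as in mug and meu genes, and 58.3% in the others. Such lncRNA covered 12.5% of renamed genes entirely, against 13.5% and 6.93%. The median protein had 382.5 residues. An opposite-strand mRNA gene covered 6.82% of them entirely. A list of 55 meiosis genes with other names, 13 of them with an older mug or meu name, had a single exon in 38.2% and lacked a 5′ UTR record in 40%, close to the 41.4% of the mug and meu genes.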

How the data were processed

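The deposited files used here are a pair of genome annotations. The values read from them are positions in bp (unit other), which the authors deposited with 0 scores or signals beside them and which describe no library. The all-chromosomes file names PomBase as the source of its records, and tetarr6 is a Geneious 7.1.5 export, per the file headers. The submitters' processing notes name Trimmomatic and BWA. No source used here gives the genome build or the library depths.

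Exons were counted from merged coding and UTR records, UTR lengths were summed per mRNA, antisense overlap needed 1 bp, and neighbours were the nearest mRNA genes. Sequences came from RefSeq ASM294v3, matched by systematic identifier for all 111 genes and 4876 of 4878 others. Positions were not converted between builds. Python 3.11.15, SciPy 1.17.1 and matplotlib 3.10.9 were used. The counting was tested on a made-up annotation of 200 genes, and 100% were recovered. The gene rule, the lists and the comparisons were chosen with earlier results of these data known, and the overlap with opposite-strand mRNA genes and the DSR density limit were added after seeing the data. Named genes were the extremes of each feature, genes next to each other or nearest a landmark, those with a known role, those that differ most between the annotations, and, chosen after their values were seen, those with most motif matches.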

Additional observations from a re-analysis of the deposited data

How the results depend on the processing

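Each value here is that of mug and meu genes minus that of the others, in percentage points unless a unit is given, and 159 alternatives were run over 22 results. A difference that stayed on its side and within its 95% interval (Newcombe for shares, order statistics for medians) was left unprinted, as in 121 alternatives, and the cause of the others was not tested. Because every annotated gene was counted, the interval served only to choose what is printed and is no test. Against other genes without a name, single-exon genes changed from 11.2 to -1.18, missing 5′ UTR records from 31.8 to 19.2, the median 5′ UTR from 29 to -7 bp, the median 3′ UTR from 14 to -31 bp, the gene record from -275 to -25 bp and the protein from -82 to 2 residues. With meu alone, 19 genes, the values were 1.71 for single exons, -28 bp and -14 bp for the 5′ and 3′ UTR, 53.5 for missing 5′ UTR records, 34.0 for the covered share, -0.281, -1.15 and 1.43 for tandem, divergent and convergent sides, -3.30 and 0.454 for chromosomes I and II, 10 residues for the protein, -1.99 for the TR box, 0.671 per kb for DSR letters and 19.4 for 4 or more per kb. With UTR-less genes counted as 0, the median 5′ UTR differed by -59 bp. Among sequence orphans, the values were -3.50 bp for the 5′ UTR, 12.9 and 1.90 for missing 5′ and 3′ UTR records. In tetarr6, missing 5′ UTR records gave 21.0, antisense lncRNA 6.04 instead of -10.3 and the covered share 39.4 instead of 20.1. Antisense lncRNA gave 1.01 at 50% of the gene and 8.21 with lncRNA genes in both annotations, whose covered share gave 34.1. With the nearest gene of any kind, divergent and convergent sides gave -2.99 and 0.656. The TR box gave 0.185 for mug alone and 1.45 for renamed genes, DSR letters per kb gave -0.000350 where a 5′ UTR is recorded, and opposite-strand mRNA genes gave 3.06 for renamed genes and -0.498 at 1 bp. FLEX letters stayed between 24.7 and 37.3 in every alternative run. No paired analysis was possible because no value of a numbered replicate library was analysed here. The depth of the libraries does not enter these counts, which rest on annotation records. The evidence from which those records were made was not examined.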
